A study of Mus musculus with 12 samples.

Results

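The 10 genes described here are p53 targets that act in apoptosis, namely Bax, Bbc3, Pmaip1, Fas, Tnfrsf10b, Eda2r, Aen, Perp, Phlda3 and Zmat3. They were chosen by symbol as textbook targets of p53, with earlier results of these data known. The shares of all tested genes given beside their counts are therefore a description and no test of the list. All 10 were found among the 26264 gene symbols of the count tables, and all 10 were among the 17002 genes that passed the filter on low counts and were tested. The libraries hold poly(A) RNA of glomeruli, which were captured from the kidney with magnetic beads perfused through the circulation. The mice were 8-week-old males of a BALB/c substrain, either BALB/cAjcl, called Ajcl here, or BALB/cByJcl, called ByJcl. In each substrain, 3 libraries came from mice labelled untreated (baseline) and 3 from mice taken on Day 5 after 1 intravenous dose of 10 mg/kg adriamycin (ADR, doxorubicin), an anthracycline that damages DNA and injures podocytes. The treatment notes also mention saline for control animals, so whether the baseline mice were injected is not clear, and the injection itself may be part of the difference between Day 5 and baseline.

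p53 is a transcription factor that is stabilised when DNA is damaged and binds response elements near its target genes. Its targets include genes that stop the cell cycle, genes that limit p53 itself and genes that favour cell death. Death by the mitochondrial route depends on BCL2 family proteins that open the outer mitochondrial membrane, and death by the receptor route depends on receptors of the tumour necrosis factor family at the cell surface. Podocytes, the filtration cells of the glomerulus, are not replaced readily when they are lost.

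The 10 genes differed in whether letters that match a p53 response element lay near their start. The full p53 response element, made of a pair of 10-base units with no spacer, was searched within 2000 bases on either side of the start of the canonical transcript in the GRCm39 genome. That start can lie inside the gene's full span, which covers all its transcripts, and distances run from it to the middle of a window. The core of each unit, a C and a G with A or T at both bases between them, had to be intact. A window with at least 18 of 20 matching bases was found for 4 of the 10 genes and for 2.434% of the 15079 protein-coding genes scanned. A full match of 20 of 20 bases occurred in 13 of these genes (0.08621%), and Zmat3 was among them. The best windows are shown on the strand of the gene, 5′ to 3′, with the C and the G of each core in capitals, to set the letters of genes that rose after ADR in at least 1 substrain beside those of Perp, which did not pass the test. The Perp and Fas windows have the same number of matches, so that number did not separate Perp from the genes that rose.
Zmat3: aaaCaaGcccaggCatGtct
Fas: gggCatGtacaaaCatGtca
Perp: attCtaGcccaggCttGccc
Bbc3: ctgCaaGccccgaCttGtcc
Aen: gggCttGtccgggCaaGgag
The Zmat3 window lies in intron 1 on the minus strand at chr3:32418480-32418499, 1418 bases after the start. The Fas window, with 18 matches, lies in intron 1 on the plus strand at chr19:34269764-34269783, 1714 bases after the start. The Perp window, also with 18 matches, lies upstream on the plus strand at chr10:18718782-18718801, at position -1924 from the start. The Bbc3 window matched at 17 bases and lies in a UTR exon on the plus strand at chr7:16043411-16043430, 750 bases after the start. The Aen window matched at 17 bases, 20 bases after the start in a UTR exon on the plus strand at chr7:78545685-78545704, and a second window of 17 matches lay 1484 bases after the start. At least 17 matches were found in 6 of the 10 genes and in 9.046% of the scanned genes, so such windows also occur in many other genes. Pmaip1 held a window with 18 matches at position -94 from its start. Bax, Tnfrsf10b, Eda2r and Phlda3 held no window with at least 16 matches in the stretch scanned, a statement about the letters alone.

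Library totals lay between 42198416 and 54687045 counts, at which 3 counts correspond to 0.0554 to 0.0702 CPM (counts per 1000000 counts of the library). CPM values were scaled between libraries with TMM factors. Ajcl Day 5 replicate 1 was left out of the fits, following the methods of the study, which excluded it for reduced glomerular purity, and its values are given beside the others. Its summed level of 8 proximal tubule markers was 8696 CPM, against 494 to 5762 CPM in the other 11 libraries. All 8 podocyte markers were detected in every library, with sums of 14630 to 19906 CPM at Ajcl baseline, 10088 to 15026 CPM in the fitted Ajcl Day 5 libraries, 18567 to 20648 CPM at ByJcl baseline and 7031 to 10301 CPM at ByJcl Day 5. All 8 fell in ByJcl at Day 5 (edgeR, median log2 fold change -1.20), and in Ajcl their median log2 fold change was -0.40. All 8 had a lower estimate in ByJcl than in Ajcl at Day 5 (median log2 difference -0.66) and a negative difference between the responses (-0.87), and none passed edgeR in either comparison. The sum of 4 smooth muscle markers was higher in ByJcl at Day 5, at 493 to 623 CPM against 310 to 387 CPM at ByJcl baseline and 346 to 359 CPM in the fitted Ajcl Day 5 libraries. Of the 4, 1 passed edgeR against ByJcl baseline. Between substrains at Day 5, all 4 had a higher estimate in ByJcl and 1 passed. All 7 immune markers had a higher estimate in ByJcl than in Ajcl, at baseline (median log2 difference 0.81) and at Day 5 (1.18), and none passed. Of 5 erythroid markers, the 4 globin genes were listed at 0 in every library, and Alas2, which encodes the enzyme that starts haem synthesis in red cell precursors, was at 4.57 to 10.4 CPM at baseline and 0.171 to 0.948 CPM in the fitted Day 5 libraries, lower in both substrains (edgeR, log2 fold changes -3.46 in Ajcl and -3.50 in ByJcl). The sum of 6 endothelial markers was 3946 to 5979 CPM at ByJcl Day 5 against 6571 to 7972 CPM at ByJcl baseline, and 1 of the 6 was called lower. All 8 proximal tubule markers had a lower estimate in ByJcl than in Ajcl at baseline (median log2 difference -0.82) and at Day 5 (-0.97), as had all 5 distal nephron markers (-1.34 and -1.35), and none passed edgeR. The part of these markers in the levels of the 10 genes was not tested. In such bulk samples, fewer cells of a type and less RNA per cell cannot be told apart. The counts of the baseline and the Day 5 libraries come in separate tables, so a difference in how the tables were made cannot be told apart from ADR.

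At Day 5, 5 of the 10 genes were higher in Ajcl and 8 of the 10 were higher in ByJcl. The tests compare all genes in a quasi-likelihood fit of edgeR with p-values adjusted by Benjamini-Hochberg and a threshold of 0.05. In Ajcl, Eda2r, Phlda3, Bbc3, Aen and Zmat3 passed, where 0.306% of the 17002 tested genes were called higher. In ByJcl, Bax, Tnfrsf10b and Fas passed as well, where 5.75% of all tested genes were called higher. The Ajcl count fell to 2 without baseline replicate 1, and to 3 without baseline replicate 2 or 3. Over all tested genes, the Ajcl calls fell from 53 to 14, 19 and 23 without baseline replicates 1, 2 and 3. Leaving out an Ajcl Day 5 library leaves a single fitted library in that group, so only effect sizes are given for those fits. No gene of the 10 was called lower in either substrain, beside 0.00588% and 4.83% of all tested genes. DESeq2 called 7 of the 10 higher in Ajcl and 9 in ByJcl, beside 1.44% and 8.95% of all tested genes. The median log2 fold change of the 10 genes was 1.11 in Ajcl and 1.65 in ByJcl, beside medians of -0.0091 and 0.0066 over all tested genes. Both Day 5 libraries of the Ajcl fit lay above all 3 baseline libraries for 7 genes (13.3% of tested genes), and all 3 ByJcl Day 5 libraries lay above their baseline for 8 genes (15.9% of tested genes).

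**Figure D1:**
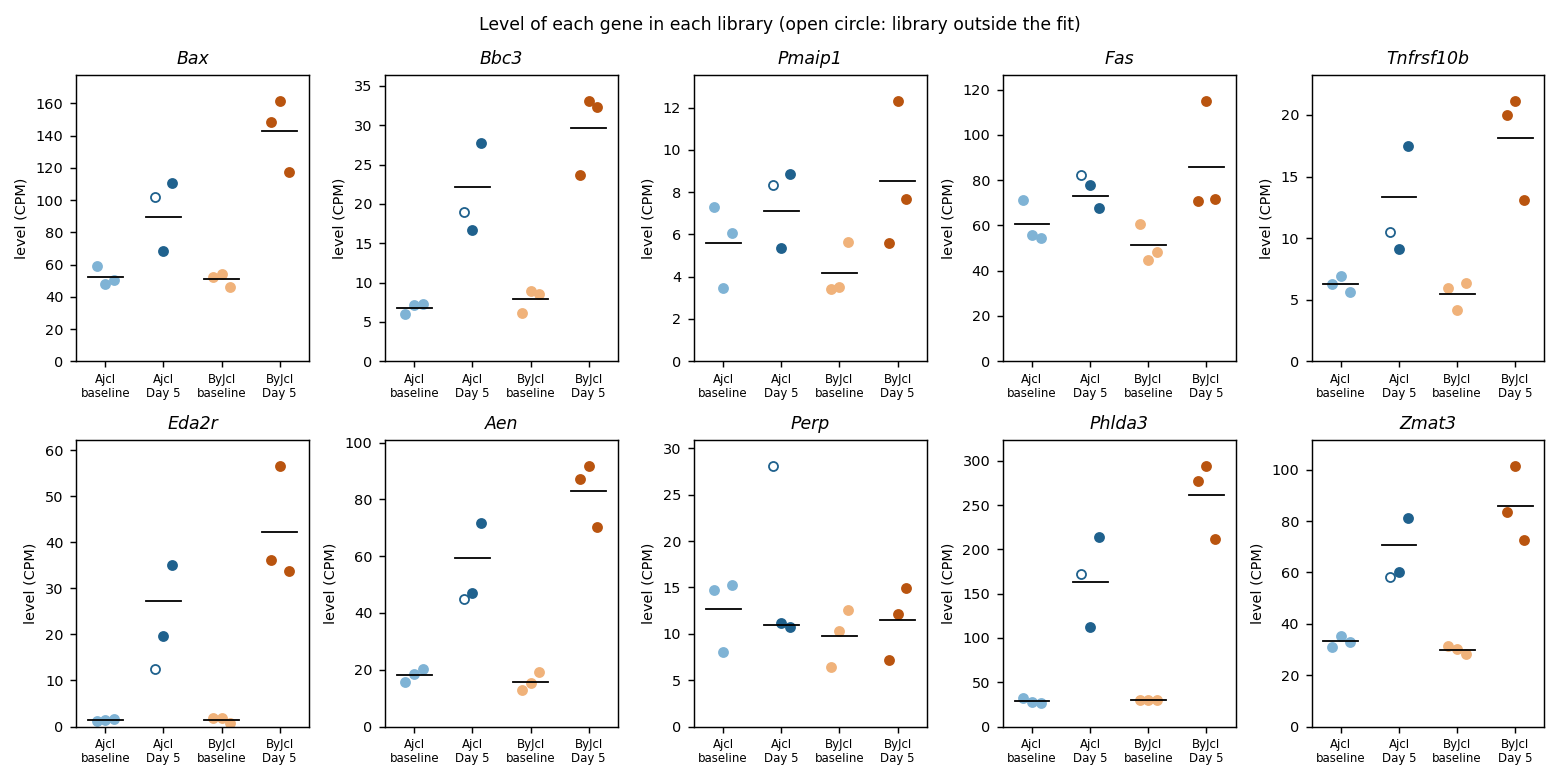
Level of each of the 10 genes (y axis, CPM, each panel from 0) in the 12 libraries by substrain and time (x axis). Points are libraries, black lines are means over the fitted libraries, and the open circle is Ajcl Day 5 replicate 1. The Eda2r libraries lay between 0.776 and 1.83 CPM at baseline and between 12.4 and 56.6 CPM at Day 5, whereas the Perp groups overlapped.

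The BCL2 family members came first. Bax (chr7:45111015-45116325, minus strand, GRCm39) encodes the effector that forms pores in the outer mitochondrial membrane. In Ajcl, Bax was at 59.3, 47.7 and 50.7 CPM in baseline replicates 1, 2 and 3, and at 68.1 and 110.6 CPM in Day 5 replicates 2 and 3, with 101.9 CPM in the library left out. In ByJcl, it was at 52.3, 54.3 and 46.2 CPM at baseline and at 148.6, 161.8 and 117.4 CPM at Day 5. Every Day 5 library lay above every baseline library of its substrain, and Ajcl replicate 2 was the lowest of the Day 5 libraries. The rise in ByJcl was 2.86-fold (log2 fold change 1.51, SE 0.19, edgeR adjusted p = 0.00163). In Ajcl the log2 difference of 0.79 (SE 0.20) did not pass edgeR (adjusted p = 0.190), while it passed DESeq2 (adjusted p = 0.0318) and also edgeR without Ajcl Day 5 replicate 2 (adjusted p = 0.0249). Without Ajcl Day 5 replicate 3 it was 0.35 and did not pass. Exons of Bax share 192 bases with Gm45808 on the same strand, so some reads could belong to either gene.

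Bbc3 (chr7:16042318-16052130, plus strand) encodes PUMA, a BH3-only protein that frees or activates Bax and its relatives. Its Ajcl levels were 5.96, 7.15 and 7.29 CPM at baseline and 16.7 and 27.7 CPM at Day 5, with 19.0 CPM in the library left out. Its ByJcl levels were 6.13, 8.90 and 8.57 CPM at baseline and 23.6, 33.1 and 32.3 CPM at Day 5. The groups of each substrain did not overlap, and the lowest Day 5 library of the 6 was well above the highest baseline library. Bbc3 rose 3.32-fold in Ajcl (log2 fold change 1.73, SE 0.24, edgeR adjusted p = 0.0123) and 3.84-fold in ByJcl (1.94, SE 0.22, adjusted p = 0.00141). The Ajcl call was lost without any of the 3 Ajcl baseline libraries (edgeR adjusted p = 0.0517 to 0.0918). Without Ajcl Day 5 replicate 3 the log2 fold change in Ajcl was 1.27.

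Pmaip1 encodes NOXA, a BH3-only protein that binds the survival protein MCL1. It was at 7.27, 3.48 and 6.05 CPM in the Ajcl baseline libraries and at 5.37 and 8.84 CPM at Day 5, with 8.34 CPM in the library left out. In ByJcl, the baseline libraries were at 3.41, 3.49 and 5.62 CPM and the Day 5 libraries at 5.57, 12.3 and 7.67 CPM. The groups overlapped in both substrains, in ByJcl by a single pair of libraries at nearly the same level. Neither difference passed edgeR, at a log2 fold change of 0.37 in Ajcl (95% interval -0.50 to 1.25, adjusted p = 0.830) and of 1.05 in ByJcl (0.26 to 1.85, adjusted p = 0.0872). DESeq2 called the ByJcl difference (adjusted p = 0.0235). In edgeR this difference was 0.69 without ByJcl Day 5 replicate 2 and 1.33 without ByJcl baseline replicate 3.

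The 3 receptors of the tumour necrosis factor family, of which Fas and Tnfrsf10b carry a death domain, ranged from a modest change to the largest fold change of the 10 genes. Fas (chr19:34268001-34305173, plus strand) encodes the receptor of Fas ligand. Its Ajcl levels were 71.4, 55.9 and 54.3 CPM at baseline and 77.9 and 67.9 CPM at Day 5, with 82.4 CPM in the library left out, and the groups overlapped. Its ByJcl levels were 60.8, 44.8 and 48.4 CPM at baseline and 70.9, 115.2 and 71.5 CPM at Day 5, with no overlap and 1 library, replicate 2, far above the others. Fas rose 1.70-fold in ByJcl (log2 fold change 0.76, SE 0.20, edgeR adjusted p = 0.0339), a call lost without ByJcl Day 5 replicate 2 (log2 fold change 0.50, adjusted p = 0.122) and also without baseline replicate 2 or 3 (log2 fold changes 0.66 and 0.72). In Ajcl the log2 difference was 0.29 (95% interval -0.20 to 0.77, adjusted p = 0.754).

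Tnfrsf10b (chr14:70004916-70021860, plus strand) encodes the mouse receptor of the death ligand TRAIL. In Ajcl it was at 6.29, 6.96 and 5.60 CPM at baseline and at 9.13 and 17.5 CPM at Day 5, with 10.5 CPM in the library left out. In ByJcl it was at 5.96, 4.14 and 6.38 CPM at baseline and at 20.0, 21.2 and 13.1 CPM at Day 5. The groups did not overlap in either substrain, but the fitted Ajcl Day 5 libraries stood far apart from each other. Tnfrsf10b rose 3.35-fold in ByJcl (log2 fold change 1.75, SE 0.29, edgeR adjusted p = 0.00506). The Ajcl log2 difference of 1.11 (SE 0.31) did not pass edgeR (adjusted p = 0.226) and passed DESeq2 (adjusted p = 0.0346). It was 0.51 without Ajcl Day 5 replicate 3 and 1.51 without replicate 2.

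Eda2r (chrX:96320270-96420847, minus strand) encodes a receptor of the ectodysplasin form EDA-A2 that lacks a death domain. In Ajcl it was at 1.26, 1.53 and 1.66 CPM at baseline and at 19.6 and 35.1 CPM at Day 5, with 12.4 CPM in the library left out. In ByJcl it was at 1.83, 1.77 and 0.776 CPM at baseline and at 36.3, 56.6 and 33.8 CPM at Day 5. Every Day 5 library exceeded every baseline library several times over. It rose 18.7-fold in Ajcl (log2 fold change 4.23, SE 0.38, edgeR adjusted p = 0.000809) and 29.6-fold in ByJcl (4.89, SE 0.38, adjusted p = 0.000130), the largest fold change of the 10 genes in both substrains.

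The ligand genes of these receptors that could be tested did not pass. Eda, which encodes the ectodysplasin ligands, had a mean of 2.60 ± 0.43 CPM (SD, n = 3) at Ajcl baseline and 1.98 ± 0.28 CPM (SD, n = 3) at ByJcl baseline. At Day 5 its log2 fold change was -0.011 in Ajcl (edgeR adjusted p = 0.994) and -0.17 in ByJcl (adjusted p = 0.763). Tnfsf10, which encodes TRAIL, had log2 fold changes of -0.088 and -0.30 (adjusted p = 0.956 and 0.529). Fasl, the Fas ligand gene, was too low to be tested, with group means between 0.0284 and 0.0944 CPM, near the level of 3 counts.

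Aen (chr7:78545602-78560957, plus strand) encodes an exonuclease that acts on DNA in apoptotic nuclei. In Ajcl it was at 15.7, 18.6 and 20.4 CPM at baseline and at 47.1 and 71.6 CPM at Day 5, with 44.9 CPM in the library left out. In ByJcl it was at 13.0, 15.2 and 19.1 CPM at baseline and at 87.2, 91.8 and 70.3 CPM at Day 5. The groups were apart in both substrains. Aen rose 3.31-fold in Ajcl (log2 fold change 1.73, SE 0.21, edgeR adjusted p = 0.00634) and 5.38-fold in ByJcl (2.43, SE 0.20, adjusted p = 0.000263). The Ajcl call was lost without baseline replicate 1 (edgeR adjusted p = 0.0564). Without Ajcl Day 5 replicate 3 the log2 fold change in Ajcl was 1.34. Exons of Aen share 1214 bases with Gm73250 on the opposite strand, and the strand setting of the counting is not given in the sources used here, so reads of that gene cannot be told apart.

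Phlda3 (chr1:135693809-135697686, plus strand) encodes a small lipid-binding protein that keeps the survival kinase AKT from the membrane. It was at 32.5, 27.7 and 26.9 CPM in the Ajcl baseline libraries and at 112.3 and 213.9 CPM at Day 5, with 172.6 CPM in the library left out. The ByJcl libraries were at 30.0, 30.3 and 29.6 CPM at baseline and at 277.6, 294.3 and 211.3 CPM at Day 5. The baseline libraries of both substrains were close together, and the Day 5 libraries were all far above them. Phlda3 rose 5.73-fold in Ajcl (log2 fold change 2.52, SE 0.24, edgeR adjusted p = 0.00100) and 8.88-fold in ByJcl (3.15, SE 0.23, adjusted p = 9.68e-05). Phlda3 and Eda2r passed in both substrains whichever baseline or ByJcl Day 5 library was left out.

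Zmat3 (chr3:32388941-32420163, minus strand) encodes a zinc finger protein that binds RNA and regulates splicing. Its Ajcl levels were 31.1, 35.3 and 33.1 CPM at baseline and 60.3 and 81.2 CPM at Day 5, with 58.1 CPM in the library left out. Its ByJcl levels were 31.2, 30.1 and 28.3 CPM at baseline and 83.3, 101.5 and 72.6 CPM at Day 5. The groups were apart in both substrains, and the baseline libraries spread little. Zmat3, whose intron 1 holds the full match to the response element shown above, rose 2.17-fold in Ajcl (log2 fold change 1.12, SE 0.17, edgeR adjusted p = 0.0185) and 2.93-fold in ByJcl (1.55, SE 0.15, adjusted p = 0.000778). The Ajcl call was lost without any of the 3 Ajcl baseline libraries (edgeR adjusted p = 0.0642 to 0.116). Without Ajcl Day 5 replicate 3 the log2 fold change in Ajcl was 0.84.

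Perp (chr10:18720715-18732821, plus strand) encodes a tetraspan protein of cell membranes and desmosomes. In Ajcl it was at 14.8, 8.02 and 15.2 CPM at baseline and at 11.1 and 10.7 CPM at Day 5. In ByJcl it was at 6.43, 10.4 and 12.6 CPM at baseline and at 7.21, 12.2 and 15.0 CPM at Day 5. The groups overlapped in both substrains. The log2 difference was -0.19 in Ajcl (95% interval -0.96 to 0.58, edgeR adjusted p = 0.909) and 0.25 in ByJcl (-0.43 to 0.93, adjusted p = 0.661), although the Perp window upstream of the start had as many matches as the Fas window. The library left out held 28.1 CPM, the highest Perp level of the 12, and with it the Ajcl log2 difference became 0.40 (adjusted p = 0.873).

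Several of the 10 genes varied with the marker sums across libraries before adjustment for the number of relations. Over the 6 baseline libraries, the level of Perp rose with the summed level of the proximal tubule markers (Pearson r = 0.910, exact permutation p = 0.0139, Spearman rho = 0.943, exact permutation p = 0.0167), with r = 0.763 without the 2 libraries farthest from the median. Perp ran against the podocyte sum at baseline (r = -0.850, exact permutation p = 0.0139, rho = -0.886, p = 0.0333), with r = -0.874 without the 2 farthest libraries. Pmaip1 had the same direction at baseline, with r = 0.656 (exact permutation p = 0.128) and rho = 0.886 (p = 0.0333) against the tubule sum and r = -0.856 (p = 0.0361) and rho = -0.943 (p = 0.0167) against the podocyte sum, but without the 2 farthest libraries r was 0.547 and -0.383. At Day 5 every Ajcl library had a higher tubule sum (2029 to 8696 CPM) than every ByJcl library (494 to 2028 CPM), so the tubule sum cannot be told apart from the substrain and no relation with it is given. Over all 6 Day 5 libraries, Bbc3 and Pmaip1 ran against the podocyte sum (r = -0.825 and -0.812, exact permutation p = 0.0361 and 0.0444, rho = -0.829 and -0.771, p = 0.0583 and 0.103), with r = -0.426 and -0.307 without the 2 farthest libraries. These two-sided tests belong to 40 relations chosen after the data were seen, of 10 genes with 2 marker sums in 2 conditions, and none passed after Benjamini-Hochberg adjustment (adjusted p of at least 0.185 for r and 0.167 for rho). Both substrains enter each relation, since 3 libraries per substrain are too few for a value within each. The part of the tubule and podocyte markers in these levels was not tested.

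**Figure D2:**
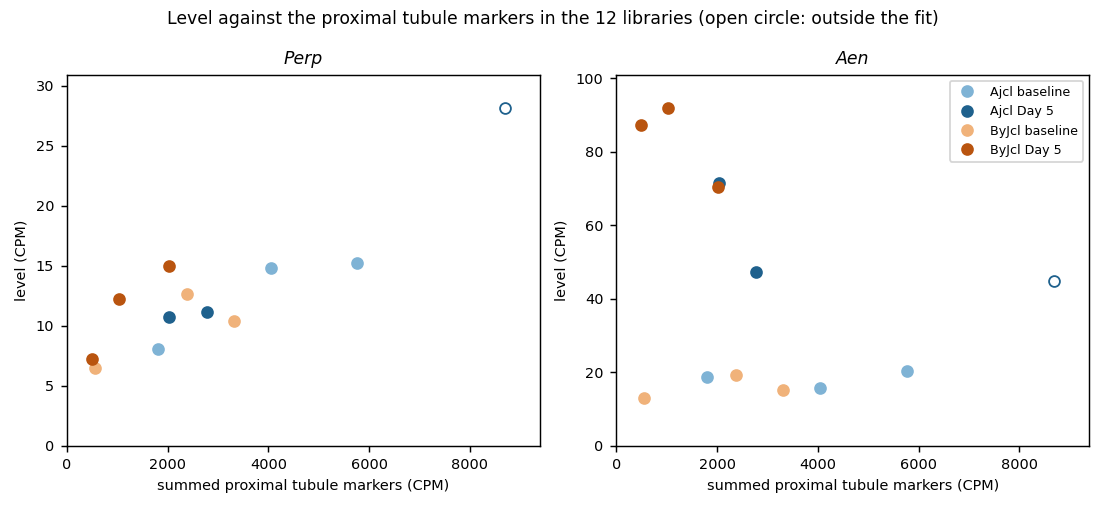
Level of Perp and Aen (y axes, CPM) against the summed level of 8 proximal tubule markers (x axis, CPM) in the 12 libraries, coloured by substrain and time. The open circle, Ajcl Day 5 replicate 1, lies at 8696 CPM of tubule markers and has the highest Perp level, 28.1 CPM, while its Aen level of 44.9 CPM is the lowest of the Day 5 libraries.

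The plot of fold changes with their intervals sets the substrains side by side. The 2 comparisons use different libraries in each substrain and share the estimate of the spread. The interval lies above 0 in both substrains for 7 genes, and for Pmaip1 and Fas in ByJcl but not in Ajcl. An interval that leaves out 0 goes with an unadjusted p below 0.05, which 9.8% of all tested genes had in Ajcl, in either direction. That share was not counted in ByJcl.

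**Figure D3:**
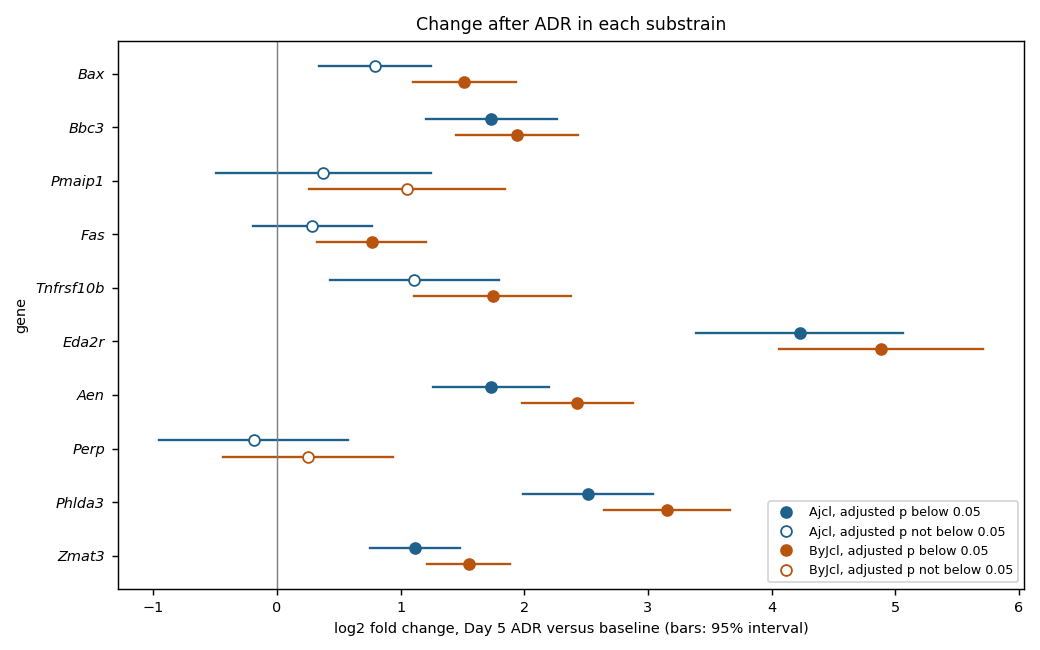
Log2 fold change from baseline to Day 5 (x axis) of the 10 genes (y axis) in Ajcl and ByJcl, with bars for the 95% interval. Filled circles passed the edgeR test (adjusted p below 0.05) and open circles did not. Eda2r had the largest values, 4.23 in Ajcl and 4.89 in ByJcl, and the intervals of the substrains overlapped for each gene.

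Whether ByJcl responded more than Ajcl was tested as the difference between both responses. The ByJcl log2 fold change exceeded the Ajcl value for all 10 genes, by 0.21 for Bbc3 up to 0.72 for Bax, where 50.3% of all tested genes had a positive difference. No gene of the 10 passed edgeR (adjusted p of at least 0.620), and 0% of the 17002 tested genes passed. At an unadjusted p below 0.05, Bax (log2 difference 0.72, 95% interval 0.11 to 1.34) and Aen (0.70, 0.06 to 1.34) passed, beside 8.02% of all tested genes. When 1 library was left out, the value of Bax ran from 0.42 to 1.17 and that of Aen from 0.43 to 1.09. DESeq2 called 23 genes (0.135%) for this difference and none of the 10. The 10 differences rest on the same libraries, and the sign turned for Bbc3 without Ajcl Day 5 replicate 2 (-0.11) and for Perp with all 12 libraries (-0.13).

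At baseline the substrains were close. The log2 difference of ByJcl from Ajcl ranged from -0.40 for Pmaip1 to 0.23 for Bbc3, and 2 of the 10 were positive, beside 51.4% of all tested genes. When 1 library was left out, that of Pmaip1 ran from -0.67 to -0.21 and that of Bbc3 from 0.11 to 0.37. None of the 10 passed edgeR, none had an unadjusted p below 0.05 and DESeq2 called none. Of all tested genes, 0.159% passed edgeR, 8.34% had such an unadjusted p and DESeq2 called 0.594%. The narrowest 95% interval was that of Zmat3 (-0.46 to 0.20) and the widest that of Pmaip1 (-1.19 to 0.39), so these intervals leave room for differences of moderate size.

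At Day 5 all 10 genes had a higher estimate in ByJcl, with log2 differences from 0.092 for Perp to 0.70 for Phlda3 and a median of 0.45, where 50.3% of all tested genes had a positive difference. The 8 podocyte markers had lower estimates in ByJcl there and the 4 smooth muscle markers had higher ones, as given above. None of the 10 genes passed edgeR, where 0.165% of all tested genes were called. Bax (log2 difference 0.70, 95% interval 0.23 to 1.16), Phlda3 (0.70, 0.17 to 1.23) and Aen (0.51, 0.03 to 0.99) had an unadjusted p below 0.05, beside 14% of all tested genes. These differences ran from 0.37 to 1.13 for Bax, from 0.30 to 1.28 for Phlda3 and from 0.22 to 0.88 for Aen when 1 library was left out, lowest without Ajcl Day 5 replicate 2 and highest without Ajcl Day 5 replicate 3. That of Tnfrsf10b ran from 0.057 to 1.05 between the same settings. DESeq2 called Bax (adjusted p = 0.0460), beside 3.26% of all tested genes. Bax was also the single gene whose ByJcl Day 5 libraries all lay above all Ajcl Day 5 libraries, as 15.1% of tested genes did. The sign of the difference between substrains turned for 3 of the 10 genes under an alternative. It turned for Perp with all 12 libraries (-0.52) and without ByJcl Day 5 replicate 3 (-0.13), for Pmaip1 without Day 5 replicate 2 of Ajcl (-0.050) or of ByJcl (-0.081), and for Fas without ByJcl Day 5 replicate 2 (-0.000815).

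The Day 5 libraries differed among themselves across most of the 10 genes at once. Among the 5 fitted Day 5 libraries, Ajcl replicate 2 was the lowest for 8 genes and ByJcl replicate 2 the highest for 9 genes. The podocyte marker sum was the highest of the Day 5 libraries in Ajcl replicate 2 (15026 CPM) and the lowest in ByJcl replicate 2 (7031 CPM), where the endothelial sum was also the lowest (3946 CPM), and the part of these markers was not tested. Relative to the baseline mean of its substrain, the median fold over the 10 genes was 1.63 in Ajcl replicate 2, 2.61 in Ajcl replicate 3, and 2.07 in the library left out. In ByJcl it was 2.96, 3.62 and 2.41 in replicates 1, 2 and 3. Ajcl replicate 3 thus exceeded ByJcl replicate 3 by this measure.

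**Figure D4:**
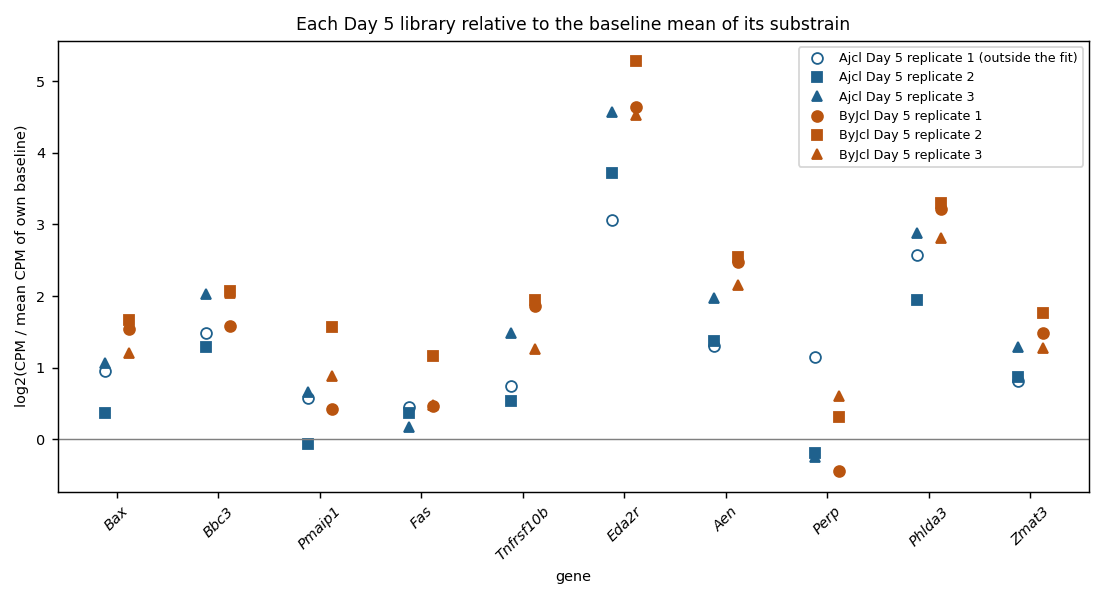
Level of each gene (x axis) in each Day 5 library relative to the mean of the 3 baseline libraries of its substrain (y axis, log2 of the CPM ratio). Symbols mark replicates and the open circle is the library left out of the fits. ByJcl replicate 2 lies at the top for 9 genes, and Ajcl replicate 2 is the lowest fitted library for 8.

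Levels can be compared between genes per kilobase of merged exons, the union of all annotated exons, which understates a gene whose long exons are used in part. At ByJcl baseline, Bax (27.4 ± 2.27 CPM per kb, SD, n = 3) and Fas (22.1 ± 3.62) were the highest, and they differed by less than the sum of their SDs. Phlda3 followed at 11.6 ± 0.13, then Perp at 4.89 ± 1.56 and Zmat3 at 2.61 ± 0.13. Bbc3 (1.64 ± 0.32), Pmaip1 (1.53 ± 0.46), Aen (1.39 ± 0.27) and Tnfrsf10b (0.964 ± 0.21) formed a run in which neighbours differed by less than the sum of their SDs, and Eda2r was the lowest at 0.195 ± 0.079. The Ajcl baseline had Bax, Fas, Phlda3, Perp and Zmat3 in the same places and Eda2r last, at 0.198 ± 0.027. At ByJcl Day 5, Phlda3 was the highest at 100.9 ± 17.0 CPM per kb, followed by Bax at 76.8 ± 12.3, from which it differed by less than the sum of their SDs, and by Fas at 37.0 ± 10.9. Zmat3, Aen, Bbc3, Perp and Eda2r then lay between 5.63 and 7.50 CPM per kb and were not separated by their SDs. Tnfrsf10b and Pmaip1 had the lowest means, 3.18 ± 0.77 and 3.12 ± 1.27. Each of them differed from Perp (5.71 ± 1.96) by less than the sum of the SDs.

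Bax acts against survival proteins of its own family, so its counts were set against theirs within each library, which needs no scaling. The ratio of Bax to Bcl2 counts was 1.52, 0.957 and 1.11 at Ajcl baseline and 1.34 and 2.31 in the fitted Ajcl Day 5 libraries, with 2.53 in the library left out. It was 1.20, 1.28 and 0.979 at ByJcl baseline and 3.63, 3.24 and 2.28 at ByJcl Day 5. The groups overlapped in Ajcl and were apart in ByJcl. The mean log2 ratio was higher at Day 5 by 0.99 (two-sided exact permutation test within substrains over 200 arrangements, p = 0.0150, smallest possible p = 0.00500). Bcl2 itself had log2 fold changes of 0.15 in Ajcl and 0.12 in ByJcl (edgeR adjusted p = 0.783 and 0.557).

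Bcl2l1, which encodes the survival protein BCL-XL, gave another picture. The ratio of Bax to Bcl2l1 counts lay between 0.282 and 0.387 in the 6 baseline libraries and between 0.252 and 0.404 in the 6 Day 5 libraries, so both ranges overlapped. The mean log2 ratio differed by -0.022 over the 11 fitted libraries (exact permutation p = 0.875). Bcl2l1 rose 2.77-fold in ByJcl (log2 fold change 1.47, SE 0.22, edgeR adjusted p = 0.00340), beside the 2.86-fold rise of Bax. In Ajcl its log2 fold change was 0.88 (adjusted p = 0.217, and 0.0380 by DESeq2), beside 0.79 for Bax.

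**Figure D5:**
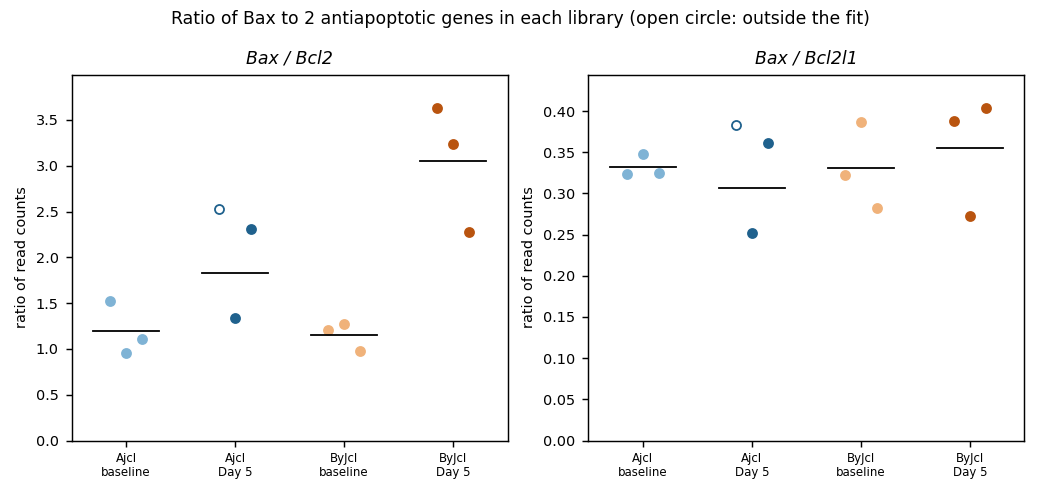
Ratio of Bax to Bcl2 counts (left) and of Bax to Bcl2l1 counts (right) in each of the 12 libraries (y axes, from 0) by substrain and time (x axes). Lines are means over the fitted libraries and the open circle is Ajcl Day 5 replicate 1. The ratio to Bcl2 reached 3.63 in ByJcl at Day 5 against at most 1.28 at baseline, while the ratio to Bcl2l1 stayed between 0.252 and 0.404 in all 12 libraries.

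The other genes of these pathways were taken from lists of textbook members, also with earlier results of these data known. Of 16 genes of p53 arrest and feedback, 4 rose in Ajcl and 13 rose in ByJcl, and none fell (edgeR, median log2 fold changes 0.76 and 1.03), beside 0.306% and 5.75% of all tested genes called higher. Cdkn1a, the inhibitor of cyclin-dependent kinases p21, rose by 3.94 on the log2 scale in Ajcl (adjusted p = 0.000257) and by 5.04 in ByJcl (adjusted p = 1.60e-05). Ccng1, which encodes cyclin G1, rose by 1.68 and 2.10, and Gtse1, a microtubule-binding protein that restrains p53, rose by 3.03 and 4.08. Without Ajcl Day 5 replicate 3, the Ajcl log2 fold change of Gtse1 was 2.56. Mdm2, the ubiquitin ligase that degrades p53, rose by 1.24 in ByJcl (adjusted p = 0.00185) and had a log2 fold change of 0.86 in Ajcl (adjusted p = 0.0905). The Ajcl difference of Mdm2 passed DESeq2 (adjusted p = 0.00207). It passed edgeR without the filter on low counts (adjusted p = 0.0401) and without ByJcl Day 5 replicate 2 (adjusted p = 0.0475). It was 1.07 without Ajcl Day 5 replicate 2 and 0.59 without replicate 3. Trp53, the p53 gene itself, had a log2 fold change of 0.15 in Ajcl (adjusted p = 0.873) and 0.69 in ByJcl (adjusted p = 0.0311). This Trp53 call was lost without any 1 of the 3 ByJcl baseline libraries or without ByJcl Day 5 replicate 1 or 2 (adjusted p = 0.0559 to 0.111).

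The BCL2 family and the apoptosome, which carry out the mitochondrial route of death, were taken next. Of 22 genes of this list, none passed edgeR in Ajcl. There, 4 had an unadjusted p below 0.05 and DESeq2 called 2 higher, beside 9.8% and 1.44% of all tested genes. In ByJcl 3 rose and 1 fell, beside 5.75% and 4.83% of all tested genes, and DESeq2 called 5 higher and 2 lower, beside 8.95% and 6.9% of all tested genes. Bcl2l1 rose as given above, and Bok, a relative of Bax, rose by 1.18 (edgeR adjusted p = 0.00751). Birc3, which encodes the inhibitor of apoptosis protein cIAP2, rose by 0.74 (adjusted p = 0.0119), a call lost without ByJcl baseline replicate 2 or Day 5 replicate 2 (adjusted p = 0.0560 and 0.0550). In Ajcl the log2 fold change of Birc3 was 0.78 (adjusted p = 0.0979), which passed DESeq2 (0.00418) and edgeR without the filter on low counts (0.0494). It was 0.95 without Ajcl Day 5 replicate 2 and 0.56 without replicate 3. Bcl2l2, which encodes the survival protein BCL-W, fell by 0.50 on the log2 scale (adjusted p = 0.00872), and with all 12 libraries its adjusted p was 0.0503. The genes of this list that rose in ByJcl thus include the survival genes Bcl2l1 and Birc3.

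Of 18 tested genes of the death receptor pathway, none passed edgeR in Ajcl, none had an unadjusted p below 0.05 and DESeq2 called none. In ByJcl 2 rose, beside 5.75% of all tested genes. Mlkl, the effector of necroptosis, rose by 1.01 (edgeR adjusted p = 0.0190) and Tnfrsf1a, the tumour necrosis factor receptor, rose by 0.39 (adjusted p = 0.0439). The Mlkl call was lost without ByJcl baseline replicate 1 or 2 or Day 5 replicate 2 (adjusted p of up to 0.0763). The Tnfrsf1a call was lost without any 1 of the 6 ByJcl libraries or Ajcl baseline replicate 2 (adjusted p of up to 0.135), and without the filter on low counts (adjusted p = 0.0522).

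Of 10 other tested p53 targets with roles in death, none passed edgeR in Ajcl. There, 4 had an unadjusted p below 0.05 and DESeq2 called 1 higher, beside 9.8% and 1.44% of all tested genes. In ByJcl 4 rose and 1 fell. Ei24, a protein of the endoplasmic reticulum, rose by 0.75 (edgeR adjusted p = 0.00325). Ckap2, a protein of the mitotic spindle, rose by 2.56 (adjusted p = 0.00999). Pidd1, the scaffold that activates caspase-2, rose by 1.65 (adjusted p = 0.0102), a call lost without ByJcl baseline replicate 2 (adjusted p = 0.0512). Steap3, an iron reductase, fell by 0.82 (adjusted p = 0.0321), a call lost without any 1 of the 3 ByJcl baseline libraries or Day 5 replicate 2 or 3 (adjusted p of up to 0.130). The background for the ByJcl counts is the 5.75% of tested genes called higher and 4.83% called lower in ByJcl.

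The profile that the 10 genes share was taken as the mean of their standardised log2(CPM + 0.5) values over the 11 fitted libraries. Across these libraries, 9 of the 10 genes had a Pearson r with it between 0.822 and 0.968, a value that includes each gene itself, and Perp had 0.215. The genes outside the list with the highest r were Crtac1 and Mybl1 (0.978 each), Cebpd (0.976), Psrc1 (0.974) and Ptprt (0.973). Psrc1, which encodes a protein of the mitotic spindle, rose by 4.18 on the log2 scale in Ajcl (edgeR adjusted p = 0.000428) and by 6.29 in ByJcl (adjusted p = 1.60e-05). Mybl1, a transcription factor of the MYB family, rose by 1.53 (adjusted p = 0.0116) and 1.78 (adjusted p = 0.00120). Crtac1, Cebpd and Ptprt did not pass in Ajcl (adjusted p = 0.496, 0.0610 and 0.192) and passed in ByJcl (adjusted p = 0.0305, 0.00229 and 0.00607). The libraries share the split between baseline and Day 5, so these values are a description and carry no test.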

How the data were processed

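RNA of 12 glomerular libraries was analysed. Per the labels and methods, the authors used Trimmomatic for trimming, STAR for alignment to the GRCm39 genome and featureCounts for counting. What they deposited are raw counts per gene symbol. Annotation and strand setting are not given in the sources used here. Of counts from 1 to 49, 77.1% to 82.9% per library were even, as if mates were counted separately, so halved counts were also tried. The members, lists and tests were chosen with earlier results of these data known.

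Groups came from the labels. Genes were kept with filterByExpr by group and fitted with edgeR 4.0.16 (R 4.3.3, TMM, glmQLFit and glmQLFTest, 4 group coefficients, 11 libraries). DESeq2 1.42.0 was an alternative. CPM used TMM factors of all 12 libraries. The Bax ratio was tested by exact permutation. The text names the 10 members, Trp53, Mdm2, Cdkn1a and Bcl2, up to 3 called genes that rose and 3 that fell in each list, by adjusted p, and the 5 genes most like the members' mean profile. Eda, Tnfsf10 and Fasl were named as ligands of the members after their values were seen. Coordinates and lengths came from GENCODE vM39. Of the methods, only the edgeR fit was tested on simulated counts. Replicates of a group differed by more than sampling noise (chi-square per degree of freedom 45.4 to 280). Precision is limited by 2 or 3 libraries per group, and floors cover counting error only.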

Additional observations from a re-analysis of the deposited data

Results flagged for a closer look

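Ajcl Day 5 replicate 1, which the fits do not use, was above all 6 baseline libraries for each of the 10 genes. The share of all tested genes for which this holds was not counted, so it is not read as a trait of these genes. Its levels were 172.6 CPM for Phlda3 (highest baseline library 32.5 CPM), 101.9 CPM for Bax (59.3 CPM), 82.4 CPM for Fas (71.4 CPM), 58.1 CPM for Zmat3 (35.3 CPM) and 44.9 CPM for Aen (20.4 CPM). The remaining levels were 28.1 CPM for Perp (highest baseline library 15.2 CPM), 19.0 CPM for Bbc3 (8.90 CPM), 12.4 CPM for Eda2r (1.83 CPM), 10.5 CPM for Tnfrsf10b (6.96 CPM) and 8.34 CPM for Pmaip1 (7.27 CPM). This library also had the highest summed level of proximal tubule markers, 8696 CPM, whose part in these values was not tested.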

How the results depend on the processing

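The 8 ByJcl calls kept their genes with all 12 libraries, RLE size factors, no filter, halved counts and the replicate block, and so did the 5 Ajcl calls in all of these but the block. Leaving out 1 library gave 2 to 6 Ajcl calls (2 without Ajcl baseline replicate 1 or Day 5 replicate 3) and 7 to 8 ByJcl calls. Between substrains at Day 5, DESeq2 gave 1 call (Bax), and leaving out 1 library gave 0 to 2 (Bax and Phlda3 without Ajcl Day 5 replicate 3). The log2 difference of the Bax to Bcl2 ratio was 0.79 to 1.18 when 1 library was left out and 1.07 with all 12 libraries, and it was -0.022 with Bcl2l1 in place of Bcl2. With all 12 libraries the Perp values changed sign, to a log2 difference of 0.40 in Ajcl, -0.13 between the responses and -0.52 between substrains at Day 5. Without Ajcl Day 5 replicate 3, the Ajcl values of Pmaip1 (-0.084), Bok (-0.35), Tnfrsf1a (-0.029) and Trp53 (-0.18) turned negative, and their highest values were 0.69, 0.47, 0.30 and 0.39 when another library was left out. The difference between the responses in Bbc3 ran from -0.11 to 0.68. The Day 5 substrain difference ran from -0.081 to 0.73 in Pmaip1 (-0.050 without Ajcl Day 5 replicate 2), from -0.000815 to 0.39 in Fas and from -0.13 to 0.32 in Perp. The cause was not tested.

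Counts over all genes moved more. In Ajcl 53 genes were called, 301 by DESeq2, 99 without the filter and 14 to 80 when a library outside Ajcl Day 5 was left out. In ByJcl 1800 were called, 1197 with all 12 libraries and 680 to 2056 when 1 was left out. The difference between the responses gave 0, 23 by DESeq2 and 0 when a library outside Ajcl Day 5 was left out. The substrains differed in 27 genes at baseline (101 by DESeq2, 12 to 29 when 1 was left out). At Day 5 they differed in 28 (555 by DESeq2, 72 with all 12 libraries, 56 without the filter, 16 without ByJcl baseline replicate 2).

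Replicate numbers did not pair the libraries: over 15 pairs of the same number the correlation of deviations ran from -0.36 to 0.51, and 5 exceeded 0.1. A library correlated best with its own number in 10 of 30 checks. With the replicate number as a block, Ajcl had 4 calls among the 10 genes (Zmat3 adjusted p = 0.0732) and 26 over all genes, ByJcl had 8 and 1592, and the substrains differed in 19 genes at baseline and 19 at Day 5. The ByJcl call of Tnfrsf1a was lost under the block (adjusted p = 0.0635).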
